A study of Mus musculus with 2 samples.

Results

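The Opalin/Il33 oligodendrocytes described here were 824 cells of the mouse preoptic area, 283 from a library made after recovery sleep and 541 from a library made after sleep deprivation, of 17584 cells kept in all. They were chosen from unique molecular identifiers (UMIs), each of which marks 1 captured transcript. A member had at least 10 UMIs of Mog, Mag, Ermn and Mobp together, at most 5 of Snap25 and Syt1, at most 1 of Cldn5, no UMI of Klk6 or Serpinb1a, and at least 2 of Il33 and Opalin. The first 3 criteria alone kept 889 oligodendrocytes in the recovery sleep library and 1490 in the sleep deprivation library. Of these, 454 and 645 had at least 2 UMIs of Klk6 and Serpinb1a, and they are called Klk6/Serpinb1a cells and serve as the comparison. A Klk6 UMI was seen in 36.1% of them in the recovery sleep library (164 cells) and 34.4% in the sleep deprivation library (222 cells). The others entered through Serpinb1a alone.

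Both libraries came from C57BL/6J mice aged 9 to 10 weeks, with tissue of both sexes pooled. The SD+RS library came from mice kept awake for 6 h and then allowed 2 h of sleep, and the SD library came from mice taken directly after 6 h of wakefulness. No mouse carried an allele or received an agent named in the labels, and the 6 h of sleep deprivation is shared by both groups. No library of undisturbed mice was analysed here, and the labels do not say how many mice a pool held. Act-seq, a dissociation carried out with an inhibitor of transcription, was followed by droplet capture on the 10x Genomics platform. Each group was 1 library, so no difference between groups could be tested. Intervals given below are at 95% and cover the error of counting UMIs or cells only.

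Oligodendrocytes wrap axons in myelin and supply them with metabolites. Mature oligodendrocytes of the mouse brain form several states that grade into each other, and Klk6 with Serpinb1a on the one hand and Il33 with Ptgds on the other are known marks of different states. Opalin encodes a small membrane glycoprotein of central myelin, and Il33 encodes an alarm cytokine that these cells hold in the nucleus. Ptgds encodes the synthase of prostaglandin D2, a lipid known to promote sleep, and Mog encodes a protein of the outer myelin surface.

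The members were shallower than the cells they are compared with. The median member had 5878 UMIs in SD+RS and 6123 in SD, and the median Klk6/Serpinb1a cell had 9712 UMIs in SD+RS and 9669 in SD. Summed UMIs of the members were 2222986 in SD+RS and 4044578 in SD. Barcodes found in both libraries numbered 23, of which 0 SD+RS members and 1 SD member carried one. Cells with at least 20 UMIs of the markers of another cell class made up 4.59% of SD+RS members (13 of 283; 2.47% to 7.73%) and 11.5% of SD members (62 of 541; 8.90% to 14.4%). Astrocyte markers accounted for 8 of the SD+RS cells and 48 of the SD cells. Values without these cells are called values without foreign markers and are given beside many of the results that they moved, but not all.

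Of the 4 marker genes of the label, only Ptgds was not used by the selection, and the shares of Mog, Opalin and Il33 below were set by it and are a description. Levels are given as CPM, the UMIs of a gene summed over the cells and divided by all UMIs of those cells, times 1000000. Ptgds, which the selection did not use, had at least 1 UMI in 100% of the members of each library (283 of 283 in SD+RS, 541 of 541 in SD). A Ptgds UMI was also seen in 31.8% of SD+RS neurons and 48.2% of SD neurons, which had median depths of 24411 and 25218 UMIs, and in 20.9% of SD+RS microglia and 33.3% of SD microglia at 5395 and 5382 UMIs. Its level was nevertheless 40244 CPM in SD+RS members and 34770 CPM in SD members, against 24.7 CPM in SD+RS neurons and 35.3 CPM in SD neurons. Mog had a UMI in 100% of SD+RS members and 98.7% of SD members, against 1.88% of SD+RS neurons and 4.23% of SD neurons. Opalin had a UMI in 97.9% of SD+RS members and 88.9% of SD members, against 1.30% and 1.24% of the neurons of the same libraries. Il33 had a UMI in 93.6% of SD+RS members and 97.2% of SD members, and astrocytes also held it, at 136 CPM in SD+RS and 124 CPM in SD. In the authors' deposited table for both libraries, the cluster numbered i1 had Mog in 98.7%, Opalin in 86.1%, Il33 in 86.8%, Ptgds in 97.4%, Serpinb1a in 47.0% and Klk6 in 14.6% of its cells. That cluster therefore held cells with Klk6 or Serpinb1a as well as cells without. The deposited values used here do not give how many cells the cluster held, and its overlap with the members was not tested.

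A longer list of genes linked to oligodendrocytes of the Opalin and Il33 kind was in most part not higher in members. Of its 17 genes, 16 were in the files, and 12 that the selection did not use had at least 100 UMIs over members and Klk6/Serpinb1a cells in each library. Of these, 1 was 1.5-fold or more higher in members in both libraries, Ptgds, and 4 were 1.5-fold or more lower, Apod, Anln, Trf and Selenop. Over all genes tested, 1.44% were higher and 1.44% were lower. The median log2 ratio of the 12 genes was −0.35 in SD+RS and −0.23 in SD. Without cells carrying foreign markers, 1 was higher and 3 were lower.

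**Figure D1:**
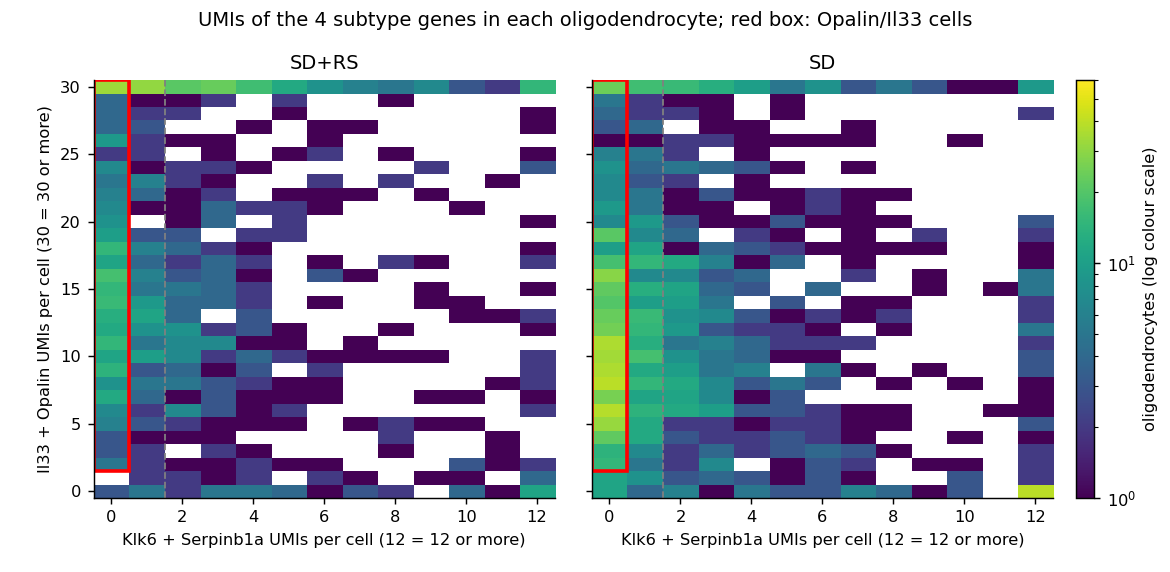
Number of oligodendrocytes (colour, log scale) by their Klk6 plus Serpinb1a UMIs (x axis) and Il33 plus Opalin UMIs (y axis), with SD+RS on the left and SD on the right. The red box holds the 283 SD+RS and 541 SD members and the dashed line lies left of the Klk6/Serpinb1a cells. Along the x axis the members run on into the other kinds without a gap. In SD, 39 cells with 12 or more Klk6 and Serpinb1a UMIs had 0 of Il33 and Opalin.

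In Klk6 and Serpinb1a UMIs, the members bordered on the other oligodendrocytes without a gap, as the map of UMIs per cell shows. In SD+RS, 0 cells without a Klk6 or Serpinb1a UMI had exactly 1 UMI of Il33 and Opalin. Of the Klk6/Serpinb1a cells, 88.5% in SD+RS (402 of 454) and 85.9% in SD (554 of 645) also had at least 2 UMIs of Il33 and Opalin. Of the oligodendrocytes with no Klk6 or Serpinb1a UMI, all but 3 in SD+RS and 22 in SD were members. A single Klk6 or Serpinb1a UMI set 149 SD+RS cells and 282 SD cells outside both kinds. Just outside, the 142 SD+RS and 270 SD cells with 1 such UMI and at least 2 of Il33 and Opalin had 39533 and 31997 CPM of Ptgds. Just inside, the 5 SD+RS and 15 SD cells with exactly 2 UMIs of Il33 and Opalin had 19534 and 29442 CPM of Ptgds, and 11 SD cells with exactly 1 such UMI lay outside with 31085 CPM. The members made up 31.8% of SD+RS oligodendrocytes (28.8% to 35.0%) and 36.3% of SD oligodendrocytes (33.9% to 38.8%). The difference between the libraries was not tested. The count of 0 UMIs depends on depth. When each cell was thinned to 2000 UMIs and the criteria were applied again, the shares were 53.3% in SD+RS (465 of 873) and 51.9% in SD (746 of 1438), with 235 SD+RS and 507 SD cells of any kind left out because they were shallower.

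Most members carried both genes. Both Il33 and Opalin were seen in 91.5% of SD+RS members (259 cells) and 86.1% of SD members (466 cells). Il33 without Opalin was seen in 6 SD+RS and 60 SD members, and Opalin without Il33 in 18 SD+RS and 15 SD members. Across members thinned to 4000 UMIs, Spearman's rho between Opalin and Il33 was −0.14 in 267 SD+RS cells and −0.01 in 522 SD cells. The cells share a library and the counts are sparse, so these values are given as a description.

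The few members with Opalin and no Il33 stood apart from the rest. They were deeper, with a median of 15436 UMIs in SD+RS and 16531 in SD, against 5796 and 6102 for members with Il33. They held 12.1% of the SD+RS members' UMIs and 5.50% of the SD members' UMIs, although 1 SD+RS cell and 2 SD cells carried foreign markers and none was marked as a doublet. Ptgds was at 9982 CPM in the SD+RS and 12871 CPM in the SD cells without Il33, against 44408 and 36044 CPM in those with it. Mog was at 3816 CPM in SD+RS and 3243 CPM in SD without Il33, against 1916 and 1420 CPM with it. These cells also held much of the members' UMIs of some genes. They had 65.5% of the SD+RS and 55.3% of the SD UMIs of Ctps, which encodes CTP synthase, and 31.4% of the SD+RS and 49.3% of the SD UMIs of Gpr17, a receptor of newly formed oligodendrocytes. Of 9630013A20Rik, an RNA on the newly formed list, they had 41.6% in SD+RS and 54.4% in SD. For the genes furthest above Klk6/Serpinb1a cells, the ratios are given with and without these cells below.

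Against Klk6/Serpinb1a cells, the members had more Ptgds and less Apod, S100b, Hopx and Enpp6 in both libraries. The criteria and these levels come from the same cells, so the contrast is a description. Ptgds was at 40244 CPM in SD+RS members and 25844 CPM in SD+RS Klk6/Serpinb1a cells, and at 34770 CPM in SD members and 19831 CPM in SD Klk6/Serpinb1a cells. The log2 ratio was 0.64 (0.63 to 0.65) in SD+RS and 0.81 (0.80 to 0.82) in SD. Apod, which encodes the lipid carrier apolipoprotein D, was at 1031 CPM in SD+RS members and 2112 CPM in SD+RS Klk6/Serpinb1a cells, a log2 ratio of −1.04. In SD it was at 1144 CPM in members and 2413 CPM in Klk6/Serpinb1a cells, a log2 ratio of −1.08. Trf, the transferrin gene through which these cells handle iron, had log2 ratios of −0.59 in SD+RS and −0.62 in SD.

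**Figure D2:**
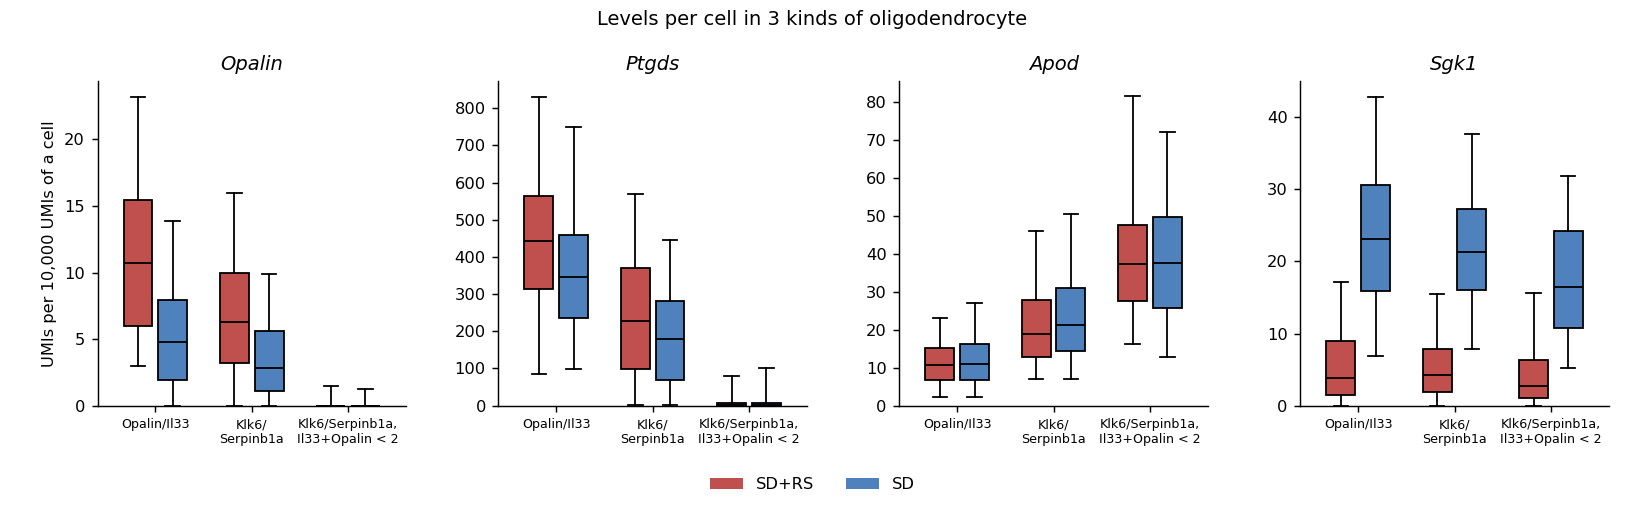
UMIs of Opalin, Ptgds, Apod and Sgk1 per 10000 UMIs of a cell (y axes) in members, in Klk6/Serpinb1a cells and in Klk6/Serpinb1a cells with under 2 Il33 and Opalin UMIs. Boxes span the quartiles with the median as a line, whiskers run to the 5th and 95th percentile, and SD+RS is red and left of SD in blue. Ptgds steps down and Apod steps up across the 3 kinds in both libraries, while Sgk1 is low in SD+RS in each kind.

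The contrast in Ptgds, S100b and Hopx was graded across the oligodendrocytes. The Klk6/Serpinb1a cells with under 2 UMIs of Il33 and Opalin, 52 in SD+RS and 91 in SD, had Ptgds at 979 CPM in SD+RS and 1225 CPM in SD. Those with at least 2 had it at 27792 CPM in SD+RS and 22031 CPM in SD, between that level and that of the members. S100b, a calcium-binding protein, ran the other way. It was at 53.1 CPM in SD+RS members, 258 CPM in the Klk6/Serpinb1a cells with Il33 and Opalin, and 1539 CPM in those without. In SD it was at 48.5, 286 and 1705 CPM in the same order. Hopx, a small homeodomain protein, was at 1.80 CPM in SD+RS members, 25.6 CPM in Klk6/Serpinb1a cells with Il33 and Opalin and 166 CPM in those without, and in SD at 1.48, 32.0 and 245 CPM. The grade was also present between cells of 5000 to 8000 UMIs. The order here is members, Klk6/Serpinb1a cells with at least 2 UMIs of Il33 and Opalin, and Klk6/Serpinb1a cells with under 2. At that depth Ptgds was at 50858, 25983 and 2359 CPM in SD+RS and at 39087, 21238 and 2842 CPM in SD. S100b was at 29.1, 197 and 1216 CPM in SD+RS and at 36.4, 134 and 1213 CPM in SD. This depth range was chosen after the data had been seen.

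Over all genes with at least 100 UMIs summed over the 2 kinds in each library, 97 of 6752 genes (1.44%) were 1.5-fold or more higher in members in both libraries and 97 (1.44%) were 1.5-fold or more lower. The genes furthest up were Gpr17, Synpr, which encodes a vesicle protein, Slc9a3r2, a scaffold of membrane transporters, and Mgll, the lipase that degrades the endocannabinoid 2-arachidonoylglycerol. Their log2 ratios in SD+RS and SD were 1.68 and 2.09 for Gpr17, 1.64 and 1.97 for Synpr, 1.61 and 1.88 for Slc9a3r2, and 1.84 and 1.59 for Mgll. Mgll was not graded in SD. It was at 33.4 CPM in members, 9.17 CPM in Klk6/Serpinb1a cells with Il33 and Opalin, and 27.5 CPM in those without. Also among the 12 highest were Kank1, Ctps, Parvb, Rap1gap, Btbd16, Pcdh7, Man1a and Marcks, with log2 ratios between 1.38 and 2.29 over both libraries. Marcks, which encodes a substrate of protein kinase C, turned direction in subsets of the cells, where the smaller of its log2 ratios in the 2 libraries was −0.84 in cells whose sex marks were all Y-linked and −1.15 in cells of 5000 to 8000 UMIs. These ratios leaned on the members without Il33. Without those cells, the log2 ratios were 1.33 and 1.19 for Gpr17, 0.97 and 1.63 for Synpr, 0.68 and 1.33 for Slc9a3r2, 0.78 and 1.10 for Mgll, and 0.22 and 0.94 for Ctps. For the others of the 12, the log2 ratios without those cells were 0.88 and 1.25 for Kank1, 0.89 and 1.26 for Parvb, 0.72 and 1.25 for Rap1gap, 0.82 and 1.42 for Btbd16, 0.94 and 1.23 for Pcdh7, 0.52 and 1.53 for Man1a, and 1.13 and 1.55 for Marcks. In SD+RS, Man1a and Ctps were then short of 1.5-fold. Without foreign markers, Marcks had log2 ratios of 0.57 in SD+RS, short of 1.5-fold, and 2.49 in SD. Mgll had 1.82 in SD+RS and 1.15 in SD. The count of genes higher was 69 without the members that lack Il33, and also 69 (1.07% of 6450) without foreign markers. Among cells of 5000 to 8000 UMIs, 14 genes were higher and 27 were lower. Fewer genes reach 100 UMIs when cells are left out. The number tested is not given for the depth range or without the members that lack Il33, so those counts have no share beside them.

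The 12 genes furthest down held up better without the members that lack Il33. Hopx had log2 ratios of −4.31 in SD+RS and −5.20 in SD, and −4.13 and −5.38 without those members. S100b had −2.73 and −3.17, and −2.64 and −3.12 without them. Nkx2-9, a homeodomain transcription factor, had 0 UMIs in SD+RS members and 2 UMIs in SD members, against 20.6 CPM and 27.0 CPM in Klk6/Serpinb1a cells. Its log2 ratio in SD+RS was at most −3.93, computed with 3 UMIs in place of the 0. Enpp6, a phosphodiesterase that marks newly formed oligodendrocytes, had −1.63 in SD+RS and −3.33 in SD. Bcat1, which starts the breakdown of branched-chain amino acids, had −1.74 and −1.49. Rapgef5, Serpind1, 2700046A07Rik, Cdkn1c, Tln2, Agmo and Aven lay between −1.52 and −3.30 over both libraries. The share of genes lower was 1.57% (101 of 6450) without foreign markers. Against the Klk6/Serpinb1a cells with under 2 UMIs of Il33 and Opalin, 185 of 3626 genes (5.10%) were higher in both libraries and 189 (5.21%) were lower.

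**Figure D3:**
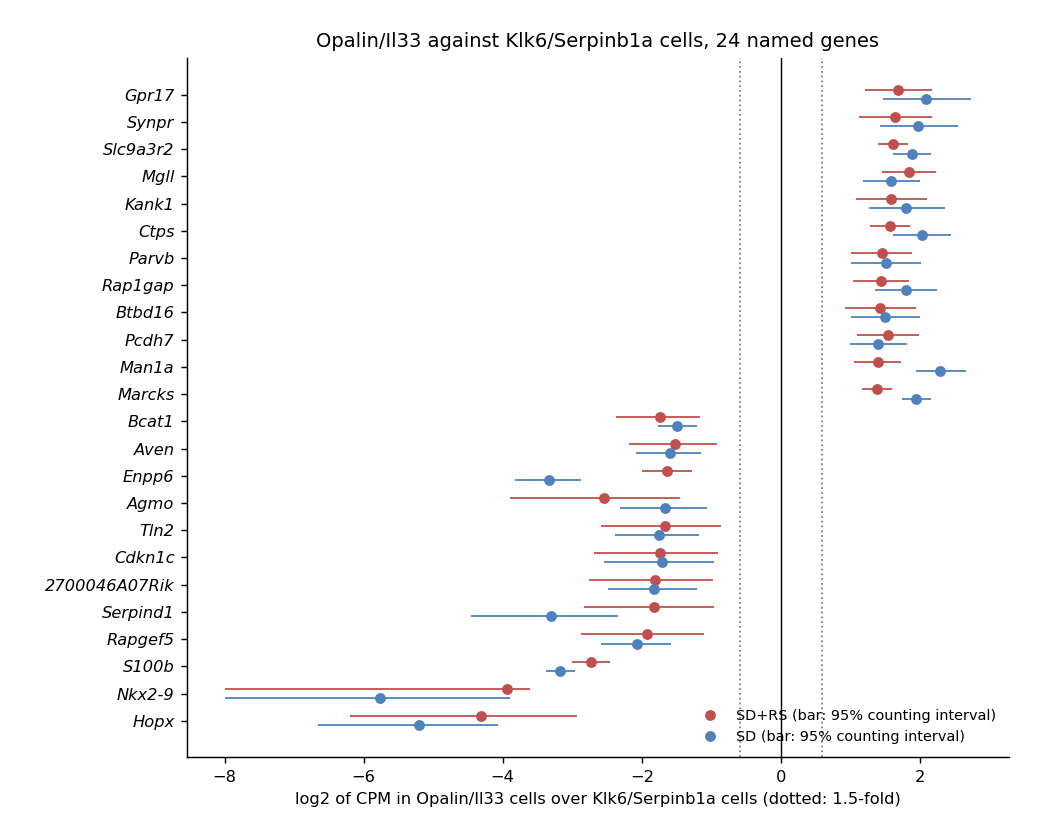
Log2 ratio of the members' CPM over that of Klk6/Serpinb1a cells (x axis) for the 12 genes highest and the 12 lowest by the smaller ratio of both libraries, SD+RS in red above SD in blue, with 95% counting intervals. The Nkx2-9 value in SD+RS is a limit from 3 UMIs and its intervals are drawn only as far as −8. Each gene lies on the same side of 0 in both libraries because the choice of genes required it.

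Gene lists of whole programs were read against the 1.44% of all genes past 1.5-fold in each direction in both libraries. Of 32 cholesterol and fatty acid genes measured, 0 were past 1.5-fold in both libraries, with medians of 0.07 in SD+RS and 0.01 in SD. Of 16 oligodendrocyte transcription factors 0 were past it, with medians of −0.04 and −0.06, and of 23 myelin proteins 3 were lower and 0 higher, with medians of −0.09 and −0.13. The 3 lower myelin protein genes were Pmp22, Tppp3 and Hapln2. Of 14 genes linked to oligodendrocytes of the Klk6 kind, 5 were lower in members, S100b, Hopx, Anxa5, Spock3 and Plin3, and 1 was higher, Cd9, with medians of −0.27 and −0.16. Of 9 newly formed oligodendrocyte genes 2 were higher, Gpr17 and 9630013A20Rik, and 1 was lower, Enpp6, with medians of 0.38 and 0.24. Without cells carrying foreign markers, 1 newly formed gene was higher and 1 lower, and the log2 ratio of 9630013A20Rik in SD+RS was below 0, at −0.20. Among cells of 5000 to 8000 UMIs, Gpr17 had 2 UMIs in SD+RS members and 1 in Klk6/Serpinb1a cells, and 8 and 0 in SD. There, 9630013A20Rik had 0 UMIs in members of both libraries, and 0 in SD+RS and 1 in SD Klk6/Serpinb1a cells. Enpp6 was at 5.39 CPM in members and 140 CPM in Klk6/Serpinb1a cells in SD+RS, and at 7.81 and 96.9 CPM in SD. The medians over all genes were −0.04 in SD+RS and −0.02 in SD.

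Between the libraries, the members had less RNA of glucocorticoid-induced and heat shock genes and more of Opalin, of a few RNA-binding proteins and of 10 of 30 cholesterol and fatty acid genes in SD+RS than in SD. Of 6350 genes with at least 100 UMIs over both libraries, 220 (3.46%) were 1.5-fold or more higher in SD+RS members and 446 (7.02%) were 1.5-fold or more lower. The median log2 ratio over these genes was −0.04. Without foreign markers, the counts were 224 of 5712 higher (3.92%) and 290 lower (5.08%). In Klk6/Serpinb1a cells, 223 of 8146 genes were higher (2.74%) and 361 lower (4.43%). Of the 446 genes lower in members, 169 were also 1.5-fold or more lower in Klk6/Serpinb1a cells, and of the 220 higher, 92 were also higher there. Each list below is described by its count and median beside these shares.

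**Figure D4:**
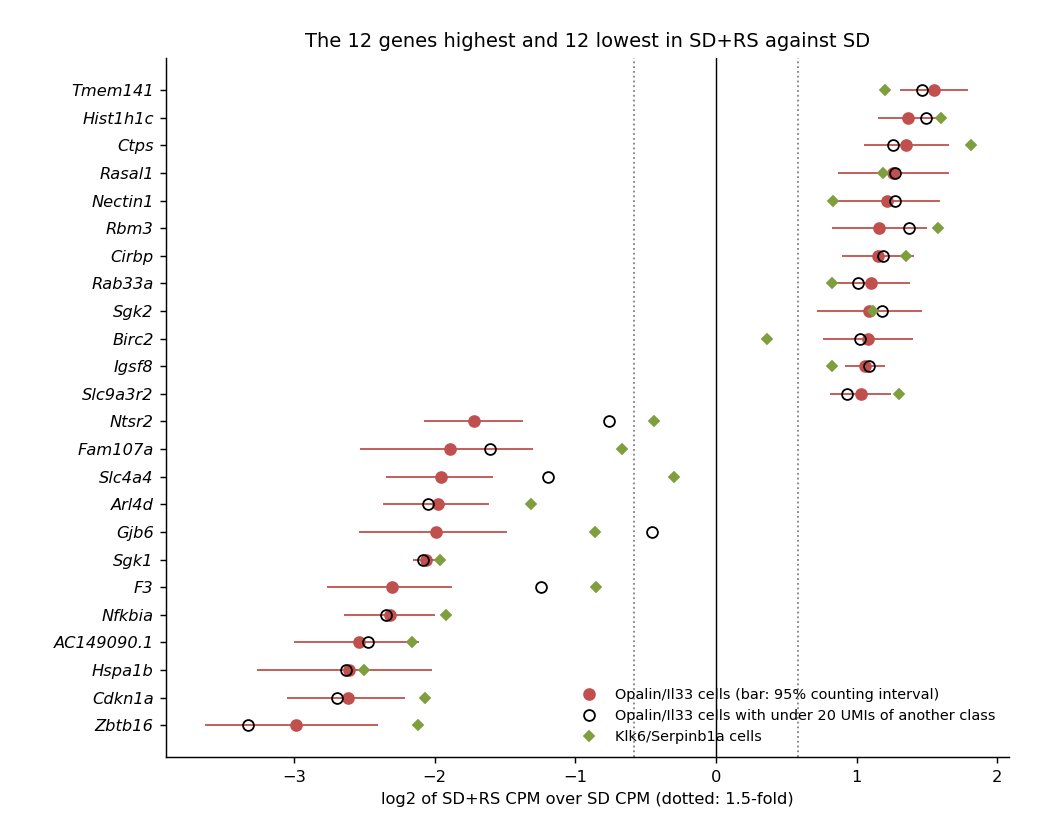
Log2 ratio of SD+RS over SD (x axis) for the 12 genes highest and the 12 lowest in members (red, with 95% counting intervals), in members without foreign markers (open circles) and in Klk6/Serpinb1a cells (green diamonds). F3, Gjb6, Slc4a4 and Ntsr2 lie nearer to 0 in the open circles, and Birc2 in the green diamonds.

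Opalin (chr19:41061710-41077113 in GENCODE vM21 on GRCm38) had the largest log2 ratio of the myelin protein genes measured in members. It had 2801 UMIs and 1260.0 CPM in SD+RS members, against 2505 UMIs and 619 CPM in SD members, a log2 ratio of 1.02 (0.95 to 1.10). The median member had 10.7 Opalin UMIs per 10000 in SD+RS (quartiles 5.97 and 15.4) and 4.76 in SD (quartiles 1.94 and 7.90), so the 2 libraries overlapped between cells. Opalin was also a criterion of membership, but the ratio was 0.97 (0.90 to 1.04) in Klk6/Serpinb1a cells, at 740.0 CPM in SD+RS and 377 CPM in SD. The ratio was 0.95 over all oligodendrocytes, which were chosen without Opalin. It was 0.90 in members of 5000 to 8000 UMIs. Opalin was at 1225 CPM in SD+RS and 671 CPM in SD in Xist-only members and 1499 and 568 CPM in Y-only members. Il33, the other gene of the criterion, was at 1105 CPM in SD+RS members and 1108 CPM in SD members, a log2 ratio with an interval of −0.08 to 0.07.

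Of 28 myelin protein genes, 2 were 1.5-fold or more higher in SD+RS members and 0 lower, with a median log2 ratio of 0.22. The 28 include genes that the selection used, among them Opalin, Mog and Mag, so the count and median rest partly on it. Besides Opalin, the gene past 1.5-fold was Tmem125, a membrane protein of oligodendrocytes. It was at 233 CPM in SD+RS and 129 CPM in SD, a log2 ratio of 0.86 (0.68 to 1.03). Mog was at 2146 CPM in SD+RS and 1520 CPM in SD (0.50, 0.44 to 0.55), and Mag, an adhesion molecule of the inner myelin face, at 4984 and 3456 CPM (0.53, 0.49 to 0.56). Cnp, a myelin enzyme, was at 7331 CPM in SD+RS and 5440.1 CPM in SD (0.43). Mbp, the basic protein that compacts myelin, had a log2 ratio of −0.07. Of 18 myelin lipid genes, 2 were higher and 2 lower, with a median of 0.15. Higher were Aspa, which frees acetate from N-acetylaspartate, at 685 CPM in SD+RS and 432 CPM in SD (0.66), and Elovl7, a fatty acid elongase, at 232 and 143 CPM (0.70). Lower were Acsbg1 (−1.52) and Sgms1 (−0.62), which stood at −0.64 and −0.45 without foreign markers.

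Cholesterol, the lipid that limits myelin growth, is made by a chain of enzymes whose genes answer to sterol-sensing transcription factors. Of 30 cholesterol and fatty acid genes, 10 were 1.5-fold or more higher in SD+RS members and 0 lower, with a median log2 ratio of 0.44. The summed level of the whole list was nevertheless 8702 CPM in SD+RS members and 9145 CPM in SD members, of which Apoe, a lipid carrier, made up 4273 and 5215 CPM. Without cells carrying foreign markers, the sum was 8477 CPM in SD+RS and 8261 CPM in SD. Mvk, mevalonate kinase, was at 48.1 CPM in SD+RS and 20.8 CPM in SD (1.21, 0.79 to 1.64), and Dhcr7, which makes the last step to cholesterol, at 45.9 and 21.5 CPM (1.09, 0.67 to 1.52). Hmgcs1, which feeds the pathway, was at 265 CPM in SD+RS and 164 CPM in SD (0.69, 0.53 to 0.85), and Cyp51 at 111 and 63.3 CPM (0.81). Idi1 (0.48) and Fasn (0.13) stood short of 1.5-fold. In Klk6/Serpinb1a cells 5 of the 30 were past 1.5-fold and the median was 0.33. The count in members was 6 without those lacking Il33, 4 in Xist-only cells, 12 in Y-only cells and 3 in cells of 5000 to 8000 UMIs.

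Of the 9 newly formed oligodendrocyte genes, 2 were higher in SD+RS members and 0 lower, with a median of 0.32. Without foreign markers, 3 were higher and 1 lower, with a median of 0.22. Enpp6 had 75 UMIs (33.7 CPM) in SD+RS and 41 UMIs (10.1 CPM) in SD, a log2 ratio of 1.73 (1.17 to 2.32), with 3.10 in Xist-only and −0.13 in Y-only members, while in Klk6/Serpinb1a cells it was 0.03. In members of 5000 to 8000 UMIs, Enpp6 was at 5.39 CPM in SD+RS and 7.81 CPM in SD. Gpr17 had 86 UMIs in SD+RS and 73 UMIs in SD (1.10, 0.63 to 1.57). Its level was 30.2 CPM in SD+RS and 9.68 CPM in SD among the members with Il33. In members of 5000 to 8000 UMIs it had 2 UMIs (2.15 CPM) in SD+RS and 8 UMIs (4.16 CPM) in SD.

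The 12 genes highest in SD+RS members by the naming rule included several with smaller ratios in other readings. Hist1h1c, a linker histone, had a log2 ratio of 1.37, and 1.66 without the members that lack Il33. Nectin1, an adhesion molecule, had 1.22 and 1.36, Rasal1, a Ras GTPase activator, 1.26 and 1.33, and Sgk2, a kinase of the Sgk family, 1.09 and 1.32 in the same order. Tmem141 had the highest ratio of the 12 at 1.55, but 1.06 without those members and 0.29 in cells of 5000 to 8000 UMIs. Ctps had 1.35, 1.08 and 0.63, Rab33a 1.10, 1.02 and 0.62, and Slc9a3r2 1.03, 0.64 and 0.20 in the same 3 readings. Birc2, an inhibitor of apoptosis, had 1.08, 0.11 and −0.38. Igsf8 had 1.06, 0.83 and 0.74.

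Rbm3 and Cirbp are RNA-binding proteins whose transcripts rise when cells cool, and Srsf5 is a splicing factor on the same list. Rbm3 was at 75.1 CPM in SD+RS members (167 UMIs) and 33.6 CPM in SD members (136 UMIs), a log2 ratio of 1.16. Cirbp was at 129 CPM in SD+RS and 58.1 CPM in SD (1.15, 0.90 to 1.41), and Srsf5 at 379 CPM in SD+RS and 191 CPM in SD (0.99, 0.85 to 1.13). These were 3 of 8 genes of the cold-inducible list, 0 were lower, and the median was 0.14 because the other 5 lay between −0.21 and 0.22. The same 3 genes were past 1.5-fold in Klk6/Serpinb1a cells, at 1.58 for Rbm3, 1.35 for Cirbp and 0.96 for Srsf5.

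**Figure D5:**
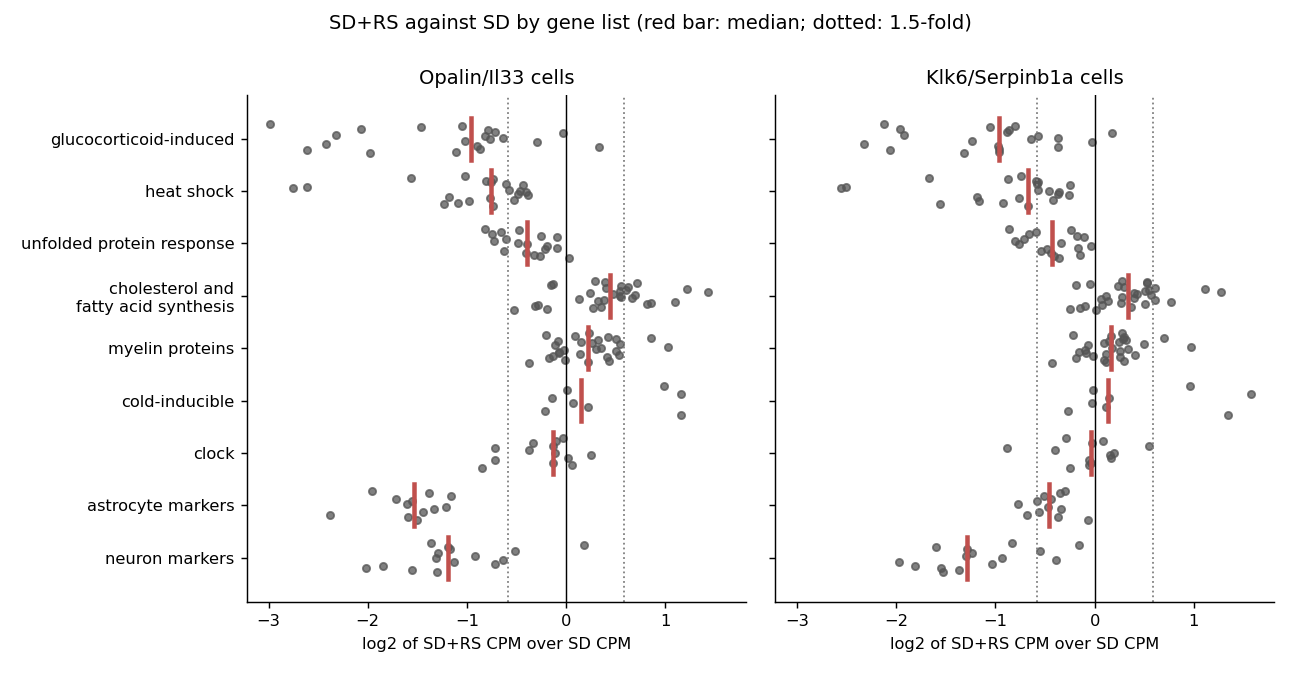
Log2 ratio of SD+RS over SD (x axis) for each tested gene (dots) of 9 lists, with the list's median as a red bar and 1.5-fold as dotted lines, in members on the left and Klk6/Serpinb1a cells on the right. The glucocorticoid-induced list has a median of −0.96 in both panels, and the astrocyte list −1.53 on the left and −0.46 on the right. The myelin protein and neuron lists include genes that the selection used.

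Glucocorticoids, the stress hormones of the adrenal gland, enter cells and bind the receptor Nr3c1, which then raises transcription of a known set of genes. Of 20 such genes measured in members, 17 were 1.5-fold or more lower in SD+RS and 0 higher, with a median log2 ratio of −0.96, against 7.02% of all genes lower. In Klk6/Serpinb1a cells 15 of the same 20 were lower, with a median of −0.96. Sgk1 (chr10:21882184-21999903 in GENCODE vM21 on GRCm38), a kinase long known as induced by serum and glucocorticoids, had 1169 UMIs and 526 CPM in SD+RS members, against 8889 UMIs and 2198 CPM in SD members. The log2 ratio was −2.06 (−2.15 to −1.98). The median member had 3.79 Sgk1 UMIs per 10000 in SD+RS (quartiles 1.54 and 8.91) and 23.1 in SD (quartiles 15.8 and 30.6), so the upper quartile of SD+RS members lay under the lower quartile of SD members. A Sgk1 UMI was seen in 81.3% of SD+RS members and 99.3% of SD members, and after thinning to 2000 UMIs in 55.7% and 96.0%. In neurons Sgk1 was at 10.3 CPM in SD+RS and 14.7 CPM in SD, with a UMI in 21.2% and 28.7% of cells. In astrocytes Sgk1 was at 10.9 CPM in SD+RS and 25.6 CPM in SD, a log2 ratio of −1.24. Other genes described below were also lower in SD+RS astrocytes. Their log2 ratios there were −2.75 for Zbtb16, −2.10 for Cdkn1a, −1.32 for Nfkbia, −4.04 for Arl4d and −2.61 for the heat shock gene Hspa1b.

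Zbtb16, a zinc finger repressor, was at 11.2 CPM in SD+RS members (25 UMIs) and 89.3 CPM in SD members (361 UMIs), the lowest ratio of the named genes at −2.99 (−3.64 to −2.40). Cdkn1a, an inhibitor of the cell cycle, was at 23.8 CPM in SD+RS and 146 CPM in SD (−2.62, −3.05 to −2.21). Nfkbia, which holds the factor NF-κB in the cytoplasm, was at 40.5 CPM in SD+RS and 202 CPM in SD (−2.32). Fkbp5, a chaperone that dampens the receptor, had 11 UMIs in SD+RS and 107 in SD (−2.42, −3.46 to −1.52), and Arl4d, a small GTPase, had 68 and 488 UMIs (−1.98). Klf9, a transcription factor, was at 181 CPM in SD+RS and 308 CPM in SD (−0.77), and Tsc22d3, a leucine zipper protein, at 127 and 263 CPM (−1.05, but −0.59 without foreign markers). The receptor gene Nr3c1 was at 118 CPM in SD+RS and 121 CPM in SD (−0.03, −0.25 to 0.19), and Dusp1 was at 31.9 and 25.5 CPM (0.33, −0.13 to 0.78). Without foreign markers 14 of the 20 were 1.5-fold or more lower, with a median of −0.93.

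The size of the Sgk1 difference went with the sex marks of the cells. Sexed by Xist and Y-linked UMIs, 170 SD+RS and 218 SD members had Xist only, and 58 SD+RS and 165 SD members had Y-linked UMIs only. In Xist-only members Sgk1 was at 362 CPM in SD+RS and 2280 CPM in SD, a log2 ratio of −2.65 (−2.79 to −2.52). In Y-only members it was at 825 CPM in SD+RS and 2109 CPM in SD, a log2 ratio of −1.35 (−1.51 to −1.20). Xist-only cells were 74.6% of sexed members in SD+RS and 56.9% in SD, and the list median was −1.04 in Xist-only and −1.17 in Y-only members. The labels do not give the number of mice of each sex, so sex and single mice cannot be told apart.

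Of 21 heat shock genes, which encode chaperones that refold proteins, 14 were 1.5-fold or more lower in SD+RS members and 0 higher, and all 21 had a ratio below 0, with a median of −0.75. Klk6/Serpinb1a cells had 12 of 21 lower and a median of −0.67. Hspa1b was at 11.2 CPM in SD+RS members (25 UMIs) and 68.7 CPM in SD members (278 UMIs), a log2 ratio of −2.61 (−3.26 to −2.02). Hspa1a had 15 UMIs in SD+RS and 184 in SD (−2.75, −3.62 to −1.99). Hspa1a and Hspa1b are near-identical copies, so their reads may have been split between them. Hsph1, a partner of these chaperones, was at 46.3 CPM in SD+RS and 137 CPM in SD (−1.56), Chordc1 at 51.7 and 102 CPM (−0.98), and the abundant Hspa8 at 1635 and 2760 CPM (−0.75, −0.81 to −0.70). Cryab, a small chaperone that is plentiful in oligodendrocytes, was at 6487 CPM in SD+RS and 9326 CPM in SD (−0.52), short of 1.5-fold. The unfolded protein response of the endoplasmic reticulum had 6 of 18 genes lower and 0 higher, with a median of −0.40. They were Xbp1, its transcription factor, at 38.2 CPM in SD+RS and 67.5 CPM in SD (−0.82), Pdia6 (−0.75), the chaperone Hspa5 at 166 and 273 CPM (−0.72), Sdf2l1 (−0.66), Creld2 (−0.63) and Manf (−0.61).

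Promoters of genes from these lists were searched, on both strands, for the letters of the elements through which the programs are known to act. The promoters were those of RefSeq on GRCm38.p6, 300 bases from 250 before to 50 after an annotated start, so that each ends inside the first exon. Those shown hold the element and belong to a gene named above, with the matching letters in capitals and each sequence 5′ to 3′ on the gene's strand. They are Sgk1 (chr10:21993640-21993939, plus strand, 1 of 6 promoters listed for the gene), Hsph1 (chr5:149636287-149636586, minus strand, 1 of 2), Chordc1 (chr9:18292017-18292316, plus strand), Hspa5 (chr2:34771840-34772139, plus strand) and Hmgcs1 (chr13:119690101-119690400, plus strand).
Sgk1: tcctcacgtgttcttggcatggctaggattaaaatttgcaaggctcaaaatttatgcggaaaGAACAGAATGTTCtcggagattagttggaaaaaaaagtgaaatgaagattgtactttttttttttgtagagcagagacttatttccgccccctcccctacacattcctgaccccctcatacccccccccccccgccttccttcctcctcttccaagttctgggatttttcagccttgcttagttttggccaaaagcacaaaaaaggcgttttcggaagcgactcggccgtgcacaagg
Hsph1: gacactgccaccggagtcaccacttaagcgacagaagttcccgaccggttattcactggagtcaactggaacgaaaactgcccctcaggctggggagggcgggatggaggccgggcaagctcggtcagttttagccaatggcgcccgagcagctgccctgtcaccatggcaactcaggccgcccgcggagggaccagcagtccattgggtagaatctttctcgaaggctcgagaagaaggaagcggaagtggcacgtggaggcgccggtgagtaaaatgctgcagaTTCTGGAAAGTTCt
Chordc1: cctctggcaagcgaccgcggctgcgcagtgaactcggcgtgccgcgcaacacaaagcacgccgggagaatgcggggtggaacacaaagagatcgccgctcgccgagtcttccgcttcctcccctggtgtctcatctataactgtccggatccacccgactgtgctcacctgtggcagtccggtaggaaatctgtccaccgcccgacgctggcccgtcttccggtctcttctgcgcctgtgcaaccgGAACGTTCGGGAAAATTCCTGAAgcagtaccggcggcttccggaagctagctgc
Hspa5: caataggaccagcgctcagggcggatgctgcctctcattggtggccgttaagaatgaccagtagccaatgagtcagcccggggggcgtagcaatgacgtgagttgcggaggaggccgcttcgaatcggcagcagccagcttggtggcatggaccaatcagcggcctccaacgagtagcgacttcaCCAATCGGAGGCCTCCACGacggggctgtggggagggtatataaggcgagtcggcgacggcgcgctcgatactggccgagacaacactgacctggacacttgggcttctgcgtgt
Hmgcs1: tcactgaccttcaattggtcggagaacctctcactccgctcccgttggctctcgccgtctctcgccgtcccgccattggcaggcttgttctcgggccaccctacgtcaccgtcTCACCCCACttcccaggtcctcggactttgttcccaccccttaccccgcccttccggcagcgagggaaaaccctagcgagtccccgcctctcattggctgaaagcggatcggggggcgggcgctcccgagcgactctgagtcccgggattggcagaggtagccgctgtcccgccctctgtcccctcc
In Sgk1 the capitals are the glucocorticoid response element, searched as GNACA and TGTNC with 3 free bases between them, which stood in 3 of 24 listed glucocorticoid genes with a promoter (Sgk1, Mt1 and Map3k6) and in 0.537% of all 27025 genes with a promoter (0.475% of 32851 promoters). In Hsph1 and Chordc1 they are the heat shock element, searched as GAA, TTC and GAA with 2 free bases between each and its reverse order TTC, GAA and TTC, which stood in 4 of 19 heat shock genes (Hsph1, Chordc1, Hspd1 and Hspe1) and in 0.662% of genes. The 3 matches in Chordc1 overlap each other. In Hspa5 they are the endoplasmic reticulum stress element, searched as CCAAT and CCACG with 9 free bases between them, which stood in 7 of 22 genes of that list and in 0.137% of genes. In Hmgcs1 they are the sterol regulatory element TCACCCCAC, which stood in 1 of 24 cholesterol and fatty acid genes and in 0.614% of genes. That element also stood in 1 of 19 heat shock genes (Fkbp4), 1 of 24 glucocorticoid genes (Tiparp) and 1 of 22 genes of the endoplasmic reticulum stress list (Hsp90b1). A match gives the letters present in this window and is no evidence of binding.

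The prostaglandin genes moved little. Of 7 prostaglandin genes 0 were past 1.5-fold in either direction, with a median of 0.18. Ptgds had a log2 ratio of 0.21 (0.20 to 0.22) in members and 0.38 in Klk6/Serpinb1a cells. Of 7 genes of the Il33 pathway, 1 was lower, Nfkbia, and 0 were higher, with a median of 0.02. Without foreign markers 2 were lower and 1 higher, with a median of −0.02. Il1rap, a subunit of the Il33 receptor, was at 143 CPM in SD+RS and 141 CPM in SD (0.02). Among 10 early response genes, 2 were higher and 2 lower. Jund was at 910.0 CPM in SD+RS and 550.4 CPM in SD (0.73) and Arc had 71 and 76 UMIs (0.77), while Nr4a1 had 43 and 149 UMIs (−0.93) and Junb 44 and 122 UMIs (−0.61). Fos had 65 UMIs in SD+RS and 116 UMIs in SD, a log2 ratio of 0.03 (−0.43 to 0.48).

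Other lists held fewer changes. Of 13 clock genes 3 were lower and 0 higher with a median of −0.14. These were Bhlhe41, a clock repressor (−0.85), Per1, a core repressor that glucocorticoids also raise (−0.72), and Cry2, another core repressor (−0.72), and without foreign markers the values were −0.79, −0.48 and −0.45 and the list's median 0.08. Of 14 iron and redox genes, 3 were lower and 0 higher with a median of −0.01. They were the metallothioneins Mt1, at 896 CPM in SD+RS and 1395 CPM in SD (−0.64), Mt2 (−0.82) and Mt3 (−1.35), at −0.55, −0.54 and −0.87 without foreign markers. Fth1, the ferritin heavy chain, had a ratio of −0.12. Of 17 oligodendrocyte transcription factors, 2 were lower, Klf9 and Bhlhe41, and 0 were higher, while Sox10 and Olig2, which define the lineage, had ratios of 0.28 and 0.18. Of 19 genes of axon support 2 were higher, Aspa among them, and 2 were lower, the lactate dehydrogenases Ldha (−1.27) and Ldhb (−0.68), at −1.12 and −0.29 without foreign markers. Of 21 channels and receptors 4 were lower and 0 higher, against 2 lower and 1 higher without foreign markers. Of the 4, Gabrb1, a subunit of the GABA-A receptor, was at 11.2 CPM in SD+RS and 38.1 CPM in SD (−1.76), and no nearer to 0 without foreign markers. Ntrk2 (−1.38), Gria2 (−0.72) and P2rx7 (−0.60) were the others, with −0.63, 0.01 and −0.46 without foreign markers. Of 7 antigen presentation and complement genes, 2 were lower and 0 higher with a median of 0.11, B2m, the light chain of class I molecules (−0.78), and the complement gene C4b (−0.70). Of 7 genes linked to sleep need through kinases, 2 were lower and 0 higher with a median of −0.33. They were Crtc3, a coactivator of CREB (−0.99), and the transcription factor Mef2d (−0.59), while the kinase Sik3 had 0.23. Of 13 genes of the mitochondrial genome, 0 were past 1.5-fold and all lay below 0, with a median of −0.13.

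RNA of other cell classes moved with the library. Of 12 astrocyte markers measured, 12 were 1.5-fold or more lower in SD+RS members, with a median of −1.53, and the 14 markers listed summed to 603 CPM in SD+RS and 1667 CPM in SD. Without foreign markers they summed to 176 CPM in SD+RS and 278 CPM in SD, with 9 of 12 lower and a median of −0.82. Among the 12 lowest named genes, F3, Gjb6, Slc4a4 and Ntsr2 had ratios of −2.31, −1.99, −1.96 and −1.72, and −1.24, −0.46, −1.20 and −0.76 without foreign markers. Fam107a had −1.89 and −1.61. Neuron markers were 1.5-fold or more lower in 13 of 15 cases, with a median of −1.19, and the 25 listed summed to 547 CPM in SD+RS and 1036 CPM in SD. Among them Slc17a6 had 0 UMIs in SD+RS and 18 in SD, and Slc32a1 had 1 and 12. Microglia markers summed to 184 CPM in SD+RS and 199 CPM in SD, and to 31.7 and 35.2 CPM without foreign markers. A Snap25 UMI was seen in 15.9% of SD+RS and 35.9% of SD members, and in 17.4% of SD+RS and 36.5% of SD endothelial cells, which should lack the gene and had median depths of 4815 and 4806 UMIs. The precursor marker Pdgfra had 9 UMIs in SD+RS and 21 UMIs in SD. The part of astrocyte and neuron RNA in results given only over all members was not tested. AC149090.1, a gene model on an unplaced scaffold, was at 21.6 CPM in SD+RS and 126 CPM in SD (−2.54, and −2.47 without foreign markers).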

How the data were processed

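Single-cell RNA was measured in 2 libraries of the preoptic area. Each deposited matrix gives UMI counts that the authors made with Cell Ranger, whose version is 3.0.2 per the file headers. The submitters' processing notes name mm10 and Seurat 4.0.4. The authors' deposited marker tables give a p-value computed over cells, the share of cells as a fraction, and an average difference treated here as a score because its log base is not given, per the file headers. Only the shares were used. Groups were taken from the treatment label.

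Barcodes were kept with 500 genes or more and less than 20% mitochondrial UMIs (7709 of 8106 in SD+RS, 9875 of 10262 in SD). Doublets were not removed in the main analysis. Scrublet in scanpy 1.11.5, set to expect 6% doublets and to simulate 2 for each cell, marked 13 of 283 SD+RS and 48 of 541 SD members. Oligodendrocytes were defined by gene counts and not by clustering. Neurons had at least 30 UMIs of Snap25 and Syt1. UMIs were summed over cells and scaled to CPM. With 1 library per group no test was run and no p-value computed. Levels have exact Poisson intervals, shares Clopper-Pearson intervals and ratios conditional binomial intervals, from scipy 1.17.1. Ratios are SD+RS over SD, or members over Klk6/Serpinb1a cells. Where a sum was 0, 3 UMIs took its place. Past the threshold means 1.5-fold among genes with at least 100 UMIs. Genes were named as the 12 highest and 12 lowest with at least 200 UMIs that went the same way in Xist-only and Y-only cells, or by the smaller ratio of both libraries, plus up to 6 list members in each direction past 1.5-fold. Further list members are named to show the rest of a pathway. Shares of cells with a UMI after thinning to 2000 UMIs left out 5 members of each library. Coordinates of promoters are from RefSeq on GRCm38.p6. The ratio intervals and code were checked on simulated Poisson counts, the model that these intervals assume. That check holds no variation between cells, mice or libraries, so it cannot show how well the intervals suit these data. The members, gene lists and rules were chosen with earlier results of these data known. Some genes are not reported here.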

Additional observations from a re-analysis of the deposited data

Results flagged for a closer look

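Crip1, a small LIM-domain protein, went opposite ways in the 2 kinds of oligodendrocyte. In members it had 45 UMIs (20.2 CPM) in SD+RS and 137 UMIs (33.9 CPM) in SD, a log2 ratio of −0.74 (−1.26 to −0.25). In Klk6/Serpinb1a cells it was at 15.5 CPM in SD+RS and 4.50 CPM in SD, a log2 ratio of 1.79 (1.20 to 2.40). The ratio in members was −0.29 without foreign markers. In all oligodendrocytes it was 0.24. The difference between the kinds was not tested, since each kind has 1 library per group.

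Marcks, a substrate of protein kinase C that binds actin, went opposite ways in the 2 sexes. In Xist-only members it had 248 UMIs in SD+RS and 187 UMIs in SD, a log2 ratio of 0.78 (0.50 to 1.06). In Y-only members it had 8 UMIs in SD+RS and 318 UMIs in SD, a log2 ratio of −3.94 (−5.16 to −2.94). Over all members Marcks was at 163 CPM in SD+RS and 143 CPM in SD. Over all members without foreign markers the direction turned, with a log2 ratio of −0.78. The difference between the sexes was not tested either, and single mice and sexes cannot be told apart.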

How the results depend on the processing

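The counts past 1.5-fold moved with the minimum of UMIs, with the depth range and with the sex of the cells. Between libraries, 220 genes higher and 446 lower became 931 and 1972 with a minimum of 10 UMIs, 77 and 133 with 300, 121 and 228 in Xist-only cells, 131 and 232 in Y-only cells, and 105 and 242 in cells of 5000 to 8000 UMIs. The 446 lower were 264 where Snap25 and Syt1 had 0 UMIs and 290 without foreign markers. Against Klk6/Serpinb1a cells, 97 higher and 97 lower became 557 and 249 with 10 UMIs, 35 and 50 with 300, 23 and 28 in Y-only cells, 14 and 27 in cells of 5000 to 8000 UMIs, and 185 and 189 against Klk6/Serpinb1a cells with under 2 Il33 and Opalin UMIs. The 97 higher were 63 with 0 Snap25 and Syt1 UMIs. The cause was not tested. The number of genes tested also changes with these settings. It is given above only without foreign markers and against the Klk6/Serpinb1a cells with under 2 Il33 and Opalin UMIs. Counts at the other settings, and the list counts below, are therefore not shares of a fixed set of genes.

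Shares of members were 44.6% in SD+RS and 42.3% in SD in Y-only cells, 37.8% and 44.1% in cells of 5000 to 8000 UMIs, and 53.3% and 51.9% after thinning. Cholesterol genes higher numbered 6 rather than 10 with 0 Snap25 and Syt1 UMIs, with each cell weighted equally, or without members that lack Il33, 4 in Xist-only cells or with 300 UMIs, and 3 at 5000 to 8000 UMIs. Clock genes lower numbered 1 rather than 3 with 0 Snap25 and Syt1 UMIs, without marked doublets, in either sex, with 300 UMIs, without foreign markers and at 5000 to 8000 UMIs, and 10 with 10 UMIs. In Xist-only cells 9 heat shock and 3 unfolded protein genes were lower, and in Y-only cells 3 unfolded protein genes were lower and 5 myelin protein genes higher. The counts for glucocorticoid and cold-inducible genes stayed within 1.5 times of 17 and 3 under every alternative run. Signs turned for Marcks against Klk6/Serpinb1a cells, where the smaller ratio of both libraries went to −0.84 in Y-only cells and −1.15 at 5000 to 8000 UMIs, and for Birc2 between libraries, to −0.38 at 5000 to 8000 UMIs. The alternatives without foreign markers, without members that lack Il33, at 5000 to 8000 UMIs and against the Klk6/Serpinb1a cells with under 2 Il33 and Opalin UMIs were chosen after seeing the data. No paired analysis was possible because each group is 1 library. Depth limits the low genes, and the 283 cells of SD+RS hold fewer UMIs than the 541 of SD.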
